A study of Mus musculus with 9 samples.

Results

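The 10 genes described here encode neuronal differentiation factors: the basic helix-loop-helix (bHLH) factors Neurod1, Neurod4, Nhlh1, Nhlh2, Bhlhe22 and Olig2, the zinc finger factors Insm1 and Insm2, and the E proteins Tcf4 and Tcf12. They were taken by symbol from 2 deposited tables of transcript levels in the embryonic mouse retina, and all 10 were listed in both, out of 12388 gene symbols in either table. The 9 samples are E12.5 retinas from CD-1 mice, in 3 groups of 3 that differ in the alleles at Neurog2. The knock-in group (KI) carried GFP at one Neurog2 allele and a knocked-in coding sequence at the other, the mutant group (MUT) carried GFP at both alleles (Neurog2GFP/GFP), and the heterozygote group (HET) carried GFP at one allele beside an intact one (Neurog2GFP/+). Every group thus carried at least one GFP allele, and no retina without GFP was compared. Tissue was taken as pairs of GFP-positive optic cups and no sort of cells is named, so each value stands for the whole dissected tissue.

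Neuronal bHLH factors bind DNA as dimers, usually of a tissue-restricted factor with a broadly expressed E protein such as Tcf4 or Tcf12, and recognise a short sequence called the E-box. Proneural factors such as Neurog2 act first, in dividing progenitors, and later factors of the Neurod and Nhlh families are switched on as cells leave the cycle and become neurons. Insm1 and Insm2 are related zinc finger repressors found in newly forming neuronal and endocrine cells. In the retina at this age most cells are progenitors, and retinal ganglion cells are the main neurons being born.

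Each table gives 1 RPKM value per transcript and group, a count of reads divided by the transcript's length and by the mapped reads of the library. No values per sample are given, so no replicate spread can stand beside a level, and how deeply each sample was sequenced is unknown. Error is taken from the authors' own test of each transcript, and a change is called below where its q-value in the authors' deposited table was 0.05 or less. The labels do not state whether litters were shared within a group, so any spread between samples in that test may not be a spread between litters. What else enters the error of that test is not stated. As a rough scale of the error, the log2 ratio divided by the authors' test statistic lay between 0.27 and 0.38 for the main transcripts of the 8 genes other than Tcf4 and Tcf12 in the mutant comparison, and between 0.27 and 0.41 in the knock-in comparison.

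Neurog2 itself was at 36.2 RPKM in the MUT-labelled group and 30.2 RPKM in the heterozygote group, which did not pass the test (q = 0.993 in the authors' deposited table). It was at 112 RPKM in the KI-labelled group and 35.5 RPKM in the MUT-labelled group, a log2 ratio of 1.66 that passed (q = 0.0104 in the authors' deposited table). Coding and untranslated sequence are not told apart in the tables, and these values are no check on the loss of the coding part. Groups are named below by their labels.

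At the heterozygote level, read per unit of transcript length, the E proteins were the most abundant of the 10 genes, with 125.9 RPKM for Tcf12 and 46.6 RPKM for Tcf4 summed over their transcripts. Neurod1 followed at 41.9 RPKM. Neurod4, Insm2, Nhlh2, Insm1 and Nhlh1 formed a middle group, between 14.5 and 18.3 RPKM. Olig2 and Bhlhe22 were lowest, at 4.56 and 4.51 RPKM. Without values per sample, neighbours in this order cannot be separated.

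**Figure D1:**
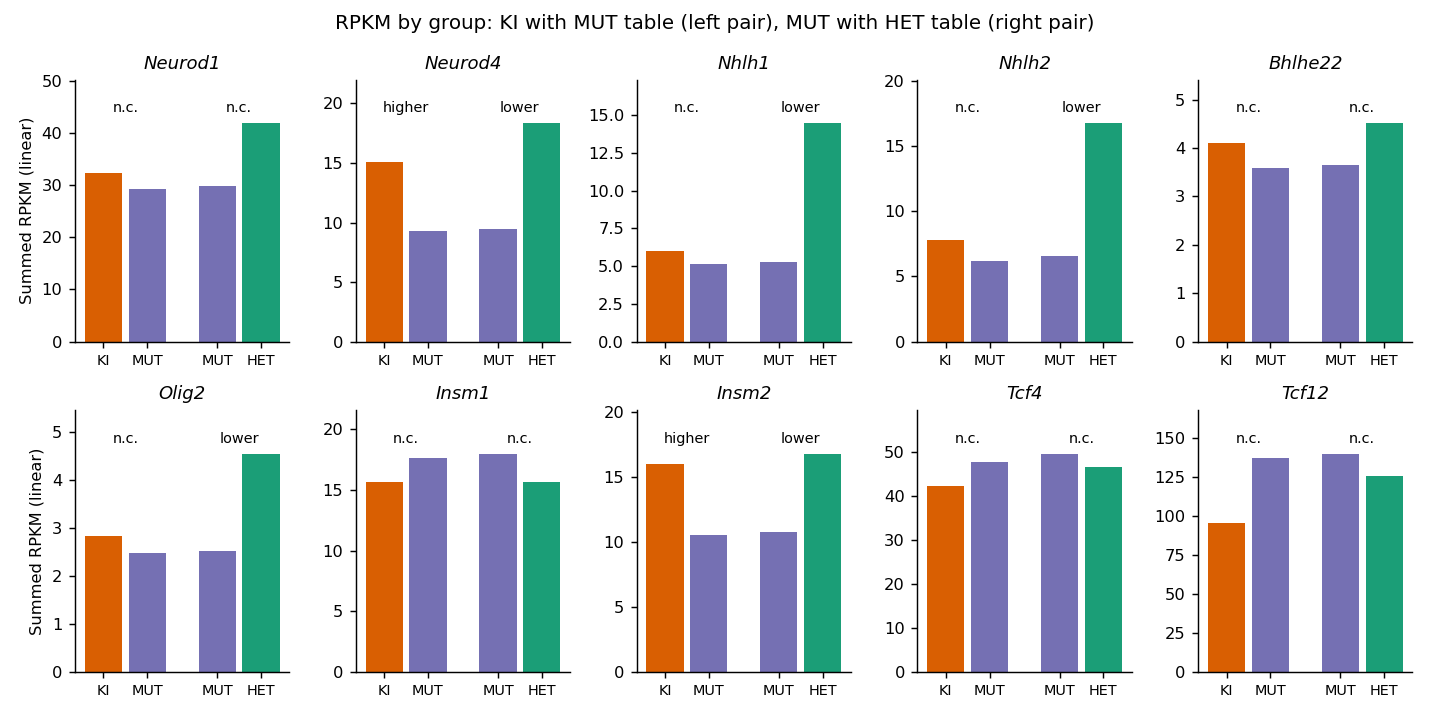
Summed RPKM (linear axis) of each of the 10 genes, with the knock-in (KI) and mutant (MUT) values of one table on the left of each panel and the mutant and heterozygote (HET) values of the other table on the right; "lower", "higher" and "n.c." (not called) give the outcome of the authors' test. Neurod4 and Insm2 dip in MUT and are called higher in KI. Nhlh1, Nhlh2 and Olig2 also dip in MUT, and their higher KI values are not called.

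MUT-labelled retinas were first set against heterozygote ones, which asks how these factors differ where, by the labels, GFP stands at both Neurog2 alleles. Nhlh1, Nhlh2, Neurod4, Olig2 and Insm2 fell, and none of the 10 rose. These 5 of 10 stand beside 1.09% of all 12247 listed genes called lower and 0.245% called higher. The median log2 ratio of the 10 genes was -0.57, against 0.03 over all listed genes. In bulk tissue, fewer cells of a type and less RNA per cell cannot be told apart.

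The 2 Nhlh genes, close relatives that are expressed in newly born neurons, had the largest falls of the 10. Nhlh1 (mm10 locus chr1:172052292-172057573) was at 5.26 RPKM in MUT-labelled and 14.5 RPKM in heterozygote retinas, a log2 ratio of -1.46 (q = 0.0109 in the authors' deposited table). Its ratio was the 12th lowest among the 134 genes called lower. Nhlh2 (chr3:102010076-102015492) had 2 listed transcripts, which summed to 6.56 RPKM in MUT-labelled and 16.7 RPKM in heterozygote retinas. The main Nhlh2 transcript was at 6.32 RPKM against 15.2 RPKM, a log2 ratio of -1.26 that passed (q = 0.0109 in the authors' deposited table). The minor one was at 0.244 RPKM in MUT-labelled and 1.55 RPKM in heterozygote retinas, and did not pass (q = 0.83 in the authors' deposited table). No transcript is listed there whose higher value is under 0.906 RPKM, so the minor one could be listed only as lower. It enters the summed log2 ratio of -1.35. Nhlh1 and Nhlh2 thus stood at 36.4% and 41.6% of their heterozygote levels, by the main transcript of each.

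Neurod4, a factor of amacrine and bipolar cell formation in the later mouse retina, was at 9.43 RPKM in MUT-labelled and 18.3 RPKM in heterozygote retinas (chr10:130268153-130280240; log2 ratio -0.96, q = 0.0109 in the authors' deposited table). Its family member Neurod1, which acts in photoreceptor and amacrine development, was at 29.9 RPKM in MUT-labelled and 41.9 RPKM in heterozygote retinas. The Neurod1 log2 ratio of -0.49 did not pass the test (p = 0.0268 and q = 0.758 in the authors' deposited table). Neurod1 lies in a locus of the authors' assembly (chr2:79255426-79461107) that also holds Cerkl, so the 2 genes were assembled together. A direct test between the Neurod1 and Neurod4 ratios was not made, and a difference between them is not shown by 1 of them passing.

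Olig2, known best from motor neurons and oligodendrocytes and in the retina from progenitors near their last division, was at 2.52 RPKM in MUT-labelled and 4.56 RPKM in heterozygote retinas (chr16:91225550-91228677). The log2 ratio was -0.85 (q = 0.0424 in the authors' deposited table). Other genes of the oligodendrocyte lineage gave little to set beside it: of 6 on the list, Mbp alone was listed in the mutant comparison and was not called. In the knock-in comparison Pdgfra, a receptor gene of oligodendrocyte precursors and of other cells, was at 1.54 RPKM in KI-labelled and 0.449 RPKM in MUT-labelled retinas and was called higher (q = 0.0104 in the authors' deposited table). No transcript is listed there whose higher value is under 1.04 RPKM, so Pdgfra could be listed only as higher. Mbp was at 7.54 RPKM in KI-labelled and 6.27 RPKM in MUT-labelled retinas and was not called (q = 0.783 in the authors' deposited table). Bhlhe22, a factor of amacrine and bipolar subtypes, was at 3.65 RPKM in MUT-labelled and 4.51 RPKM in heterozygote retinas (chr3:18054174-18057517) and did not pass (log2 ratio -0.30, q = 0.993 in the authors' deposited table).

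The Insm genes differed in sign. Insm2 (chr12:55598917-55602018) was at 10.8 RPKM in MUT-labelled and 16.8 RPKM in heterozygote retinas, a log2 ratio of -0.64 (q = 0.0286 in the authors' deposited table). Insm1 (chr2:146221921-146225020) was at 18.0 RPKM in MUT-labelled and 15.7 RPKM in heterozygote retinas, and its log2 ratio of 0.20 did not pass (q = 0.993 in the authors' deposited table). Insm2 was thus near the Insm1 level in heterozygotes and below it in MUT-labelled retinas. The difference between the Insm ratios was not tested.

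**Figure D2:**
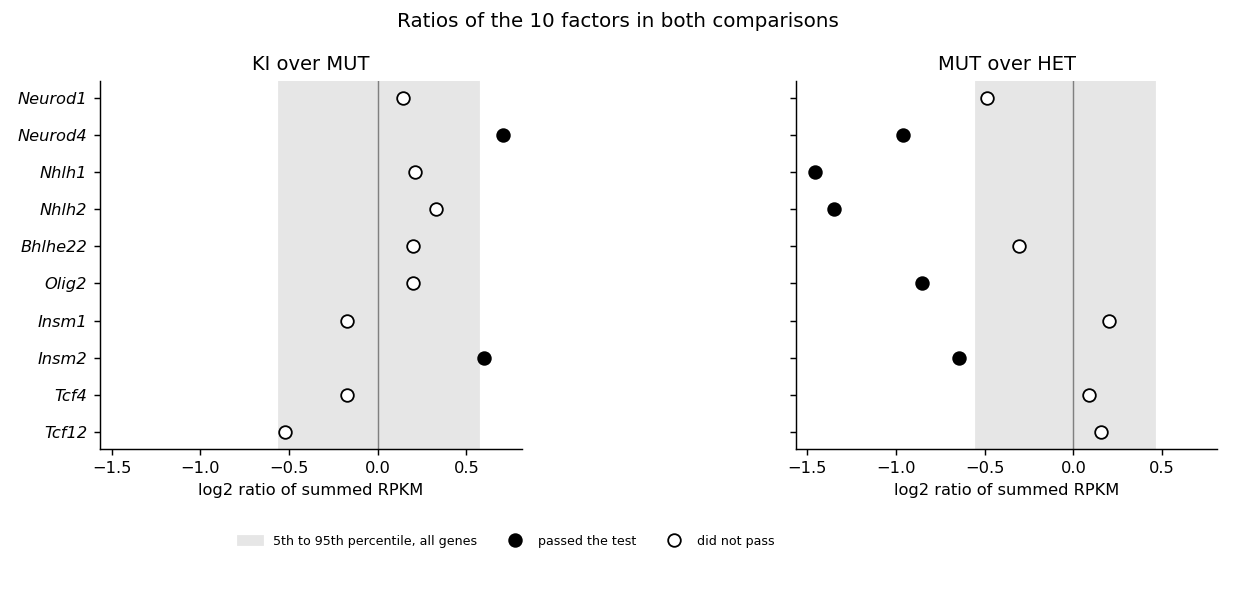
Log2 ratio of summed RPKM for each gene, knock-in over mutant on the left and mutant over heterozygote on the right, with filled points for genes that passed the authors' test and a grey band for the 5th to 95th percentile of all genes with at least 1 RPKM in both groups. The 5 filled points of the mutant comparison lie below the band, which ends at -0.55, and the 2 filled points of the knock-in comparison lie just above the band, which ends at 0.57.

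KI-labelled retinas were then set against MUT-labelled ones, which asks what differs where, by the labels, the knock-in stands in place of 1 GFP allele. Neurod4 and Insm2 rose, and none of the 10 fell. These 2 of 10 stand beside 1.03% of all 11989 listed genes called higher and 0.634% called lower. The median log2 ratio of the 10 was 0.20, against 0.00 over all listed genes. The MUT-labelled samples enter both comparisons, so a mutant value that is low by chance raises one ratio and lowers the other.

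Neurod4 was at 15.1 RPKM in KI-labelled and 9.26 RPKM in MUT-labelled retinas, a log2 ratio of 0.70 (q = 0.0104 in the authors' deposited table). Insm2 was at 16.0 RPKM against 10.6 RPKM, a log2 ratio of 0.60 (q = 0.0363 in the authors' deposited table). These were modest among the called genes, ranking 64 and 86 of the 123 called higher with a finite ratio. The other genes that fell in the mutant comparison did not pass here. Nhlh1 was at 5.97 RPKM in KI-labelled and 5.16 RPKM in MUT-labelled retinas (log2 ratio 0.21, q = 0.784 in the authors' deposited table). Nhlh2 was at 7.78 RPKM against 6.20 RPKM (log2 ratio 0.33, q = 0.783 in the authors' deposited table), from its main transcript, as the minor one is not listed there. Olig2 was at 2.84 RPKM in KI-labelled and 2.48 RPKM in MUT-labelled retinas (log2 ratio 0.20, q = 0.831 in the authors' deposited table).

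Of the factors that had not passed in the mutant comparison, Neurod1 was at 32.4 RPKM in KI-labelled and 29.3 RPKM in MUT-labelled retinas. Bhlhe22 was at 4.11 RPKM against 3.58 RPKM, and Insm1 at 15.7 RPKM against 17.7 RPKM. Their log2 ratios were 0.14, 0.20 and -0.17, and none passed (q of 0.872, 0.795 and 0.783 in the authors' deposited table).

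No table sets the KI-labelled group against the heterozygote group. The mutant values of both tables allow levels to be put side by side: for the 5047 genes that have 1 transcript in each table, the median log2 ratio of the first table's mutant value to the second's was 0.03, and knock-in values were rescaled by this. For the genes that fell in the mutant comparison, Insm2 in the KI-labelled group was then at 16.3 RPKM, 96.9% of its heterozygote level of 16.8 RPKM. Neurod4 was at 15.4 RPKM, 83.8% of its heterozygote level. Olig2 was at 63.5%, Nhlh2 at 52.3% and Nhlh1 at 42.1% of the heterozygote level. As a share of the gap between mutant and heterozygote levels, a measure chosen after the values were seen, the knock-in value covered 91.4% for Insm2 and 66.7% for Neurod4. It covered 18.3% for Olig2, 18.2% for Nhlh2 and 8.97% for Nhlh1. For Bhlhe22 and Neurod1, which were called in neither comparison, it covered 62.9% and 26.1%, so a large share is not particular to called genes. No test of these shares, or of differences between the genes, is possible from group values.

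**Figure D3:**
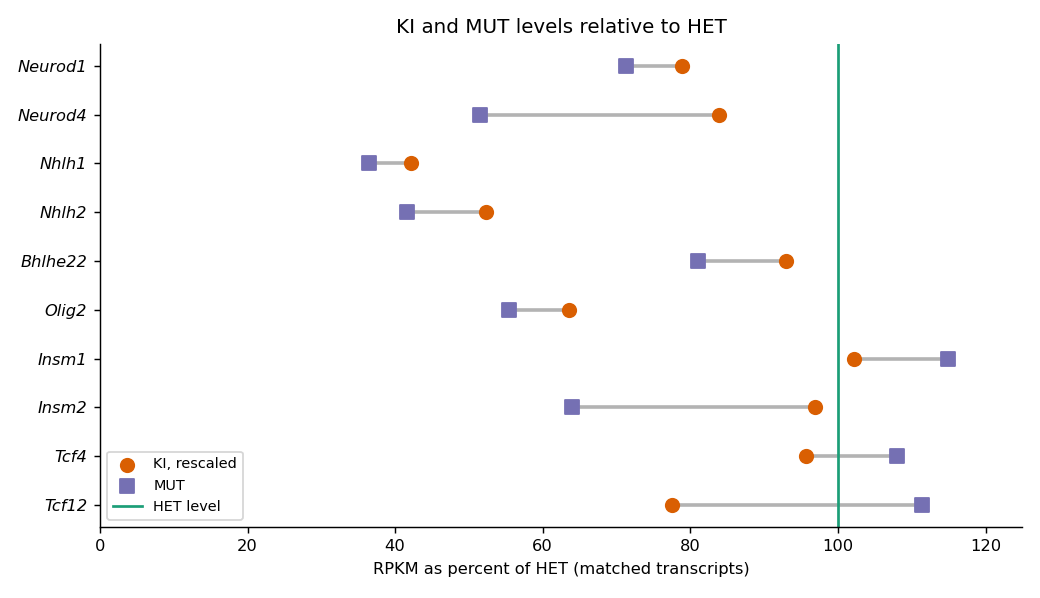
Level of each gene in the knock-in group (circles, rescaled between tables) and the mutant group (squares) as percent of its heterozygote level (vertical line at 100), over transcripts matched between the tables. Insm2 and Neurod4 circles lie at 96.9% and 83.8%, far from their squares at 64.0% and 51.5%, whereas the Nhlh1 circle at 42.1% lies close to its square at 36.4%.

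The sequence before the transcription start was compared for Nhlh1, Nhlh2, Neurod4 and Insm2, since the Neurod and Nhlh proteins and Neurog2 recognise E-boxes. Nhlh1 and Nhlh2 passed in the mutant comparison only, and Neurod4 and Insm2 passed in both. The set of RefSeq (GRCm38.p6) promoters used here holds 7 of the 10 genes, and Bhlhe22, Insm1 and Tcf4 have no entry in that set. The bases shown run 5′ to 3′ up to the first start annotated in RefSeq or GENCODE, and capitals mark matches to CANNTG, a motif that is the same on both strands.
Nhlh1 (chr1:172057597-172057846, minus strand): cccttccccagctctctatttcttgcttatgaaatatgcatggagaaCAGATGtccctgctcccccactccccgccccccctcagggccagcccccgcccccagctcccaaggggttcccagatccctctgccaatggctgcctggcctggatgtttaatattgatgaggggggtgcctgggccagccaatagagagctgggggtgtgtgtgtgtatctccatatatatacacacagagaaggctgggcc
Nhlh2 (chr3:102009895-102010075, plus strand): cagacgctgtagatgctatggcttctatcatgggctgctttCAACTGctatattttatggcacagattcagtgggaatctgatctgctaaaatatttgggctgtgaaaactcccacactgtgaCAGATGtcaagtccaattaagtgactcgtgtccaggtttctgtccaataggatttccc
Neurod4 (chr10:130280255-130280504, minus strand): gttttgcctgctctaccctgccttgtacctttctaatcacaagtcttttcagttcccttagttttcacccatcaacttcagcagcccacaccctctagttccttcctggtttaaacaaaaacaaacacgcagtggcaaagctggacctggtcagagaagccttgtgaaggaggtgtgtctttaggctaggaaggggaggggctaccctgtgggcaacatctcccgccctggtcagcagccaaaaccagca
Insm2 (chr12:55598667-55598916, plus strand): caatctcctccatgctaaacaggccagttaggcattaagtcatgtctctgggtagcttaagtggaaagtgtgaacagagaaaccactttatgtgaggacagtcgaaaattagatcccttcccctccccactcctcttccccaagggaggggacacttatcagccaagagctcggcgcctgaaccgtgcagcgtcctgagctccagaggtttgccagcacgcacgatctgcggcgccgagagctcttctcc
Nhlh1 and Nhlh2, which had the largest falls in the mutant comparison, each hold 1 CAGATG, at 203 and 127 bases before the RefSeq start. CAGATG or its reverse complement CATCTG occurs in 14.4% of the 32851 RefSeq promoters over the same 250 bases. Neurod4 and Insm2 hold no CANNTG in this window, while 66.2% of promoters hold at least 1. Olig2, which like Nhlh1 and Nhlh2 passed in the mutant comparison only, holds none either. Of the factors called in neither comparison, Neurod1 holds 1 CATATG, and of the 3 RefSeq promoters of Tcf12 1 holds CAGCTG and another CAAGTG. In all, 4 of the 7 matched genes hold an E-box. These matches describe the letters only; binding was not measured, and the genes were picked after their values were seen.

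The E proteins Tcf4 and Tcf12, dimer partners of the other bHLH factors, did not pass the test in any transcript. In the mutant comparison their summed values were close: 49.6 RPKM in MUT-labelled and 46.6 RPKM in heterozygote retinas for Tcf4, and 140.2 RPKM against 125.9 RPKM for Tcf12, log2 ratios of 0.09 and 0.16. Tcf12 then stood at 95.7 RPKM in KI-labelled and 137.5 RPKM in MUT-labelled retinas, a log2 ratio of -0.52. Its lowest transcript p was 0.0754 (q = 0.783 in the authors' deposited table).

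As no Tcf12 value passed, its transcripts are given as a description. The 8 Tcf12 transcripts of each table could be paired across the tables by their mutant values, to within 0.005 on the log2 scale after rescaling. The main one was at 52.5 RPKM in KI-labelled and 47.8 RPKM in MUT-labelled retinas, and in the other table at 48.7 RPKM in MUT-labelled and 47.6 RPKM in heterozygote retinas. The next was at 7.55 RPKM in KI-labelled and 43.2 RPKM in MUT-labelled retinas (log2 ratio -2.52, not called, with a ratio over test statistic of 2.14), and at 44.0 RPKM in MUT-labelled and 38.1 RPKM in heterozygote retinas. A minor Tcf12 transcript was listed at 0 in the KI-labelled group and at 3.15 RPKM in the MUT-labelled group. Being below 1.04 RPKM in the KI-labelled group, it could be listed only as lower. The main transcript made up 54.9% of Tcf12 RPKM in the KI-labelled and 34.7% in the MUT-labelled group.

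For Tcf4, 9 of 10 transcripts could be paired. The main one was at 19.9 RPKM in KI-labelled and 13.4 RPKM in MUT-labelled retinas (log2 ratio 0.57, p = 0.0413 and q = 0.665 in the authors' deposited table). In the other table it was at 13.6 RPKM in MUT-labelled and 17.6 RPKM in heterozygote retinas (log2 ratio -0.37, p = 0.167 in the authors' deposited table). The next was at 4.49 RPKM in KI-labelled and 9.92 RPKM in MUT-labelled retinas (log2 ratio -1.14, p = 0.0394 and q = 0.653 in the authors' deposited table). Taken by its main transcript, Tcf4 was higher in the KI-labelled group, and taken by the sum it was lower, at 42.3 RPKM against 47.8 RPKM. The error scale differed widely among the Tcf4 and Tcf12 transcripts. The ratio divided by the test statistic lay between 0.35 and 0.46 for the main transcript of each gene over both comparisons, and reached 8.19 in the mutant comparison and 5.396 in the knock-in comparison for minor Tcf4 transcripts.

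**Figure D4:**
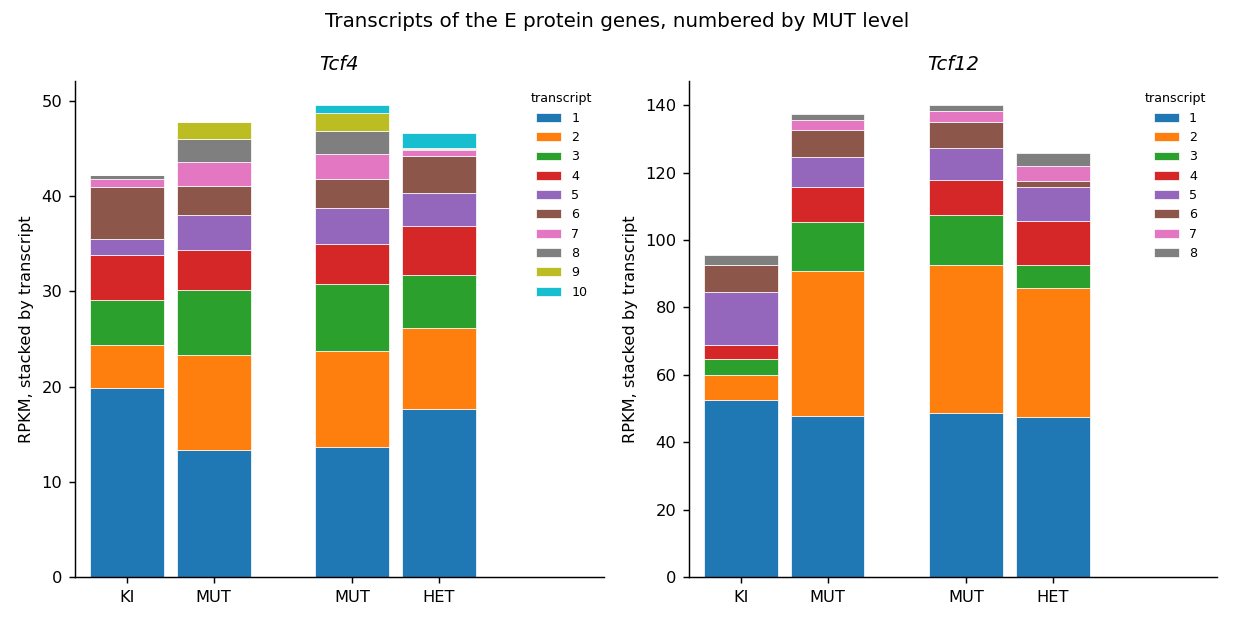
RPKM of each transcript of Tcf4 and Tcf12, stacked, with the knock-in and mutant values of one table on the left and the mutant and heterozygote values of the other on the right; colours number the transcripts from the highest mutant value down. Transcript 2 of Tcf12 has 7.55 RPKM in KI against 43.2 RPKM in MUT and transcript 1 has 52.5 RPKM against 47.8 RPKM; no transcript of either gene passed the test.

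The other genes of the pathway were read from 4 lists of proneural and neuronal bHLH factors, E proteins and cofactors, bHLH inhibitors and textbook proneural targets, of which 61 genes outside the 10 are reported. In the mutant comparison 40 of these were listed, 3 fell and none rose, and the median log2 ratio was -0.31. Over all 12247 listed genes, 1.09% were called lower and 0.245% higher. Neurog2, Atoh7 and Ptf1a, the 3 reported bHLH factors listed, did not pass. The 3 that fell were among 16 listed target genes. Stmn2, a microtubule regulator of growing axons, was at 129.0 RPKM in MUT-labelled and 268.0 RPKM in heterozygote retinas, with a called transcript at q = 0.0109 in the authors' deposited table. Elavl3, a neuronal RNA-binding protein, was at 17.1 RPKM against 34.04 RPKM, and Btg2, an antiproliferative gene of neurogenic divisions, at 40.9 RPKM against 63.4 RPKM (both q = 0.0109 in the authors' deposited table). Of 9 listed inhibitors none passed, the most abundant being Id3 at 158.0 RPKM in MUT-labelled and 144.8 RPKM in heterozygote retinas and Hes6 at 103.0 RPKM against 110.0 RPKM. Hes6 stands on both the inhibitor and the target list, and Cbfa2t2 on both the cofactor and the target list. None of 14 listed E proteins and cofactors passed either. The histone deacetylase genes Hdac2 and Hdac1, the most abundant of them, were at 197.5 RPKM against 227.9 RPKM and at 119.4 RPKM against 99.4 RPKM.

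In the knock-in comparison 41 of the 61 were listed, Neurog2 rose and Hes5 fell, and the median log2 ratio was 0.14. Over all 11989 listed genes, 1.03% were called higher and 0.634% lower. Hes5, a Notch target that represses proneural genes, was at 21.3 RPKM in KI-labelled and 42.3 RPKM in MUT-labelled retinas (log2 ratio -0.99, q = 0.0104 in the authors' deposited table). In the mutant comparison Hes5 was also lower, at 43.1 RPKM in MUT-labelled and 64.1 RPKM in heterozygote retinas. That log2 ratio of -0.57 did not pass (q = 0.116 in the authors' deposited table). No E protein or cofactor passed, with Hdac2 at 236.8 RPKM against 193.8 RPKM and Hdac1 at 103.7 RPKM against 117.2 RPKM. No target gene outside the 10 passed. The most abundant were Stmn2, at 150.2 RPKM in KI-labelled and 126.6 RPKM in MUT-labelled retinas (lowest q = 0.0506 in the authors' deposited table), and Hes6, at 132.0 RPKM against 101.0 RPKM. Atoh7, the bHLH factor needed for ganglion cells and named after its values were seen, was at 206.0 RPKM in KI-labelled and 145.1 RPKM in MUT-labelled retinas (q = 0.0843 in the authors' deposited table).

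**Figure D5:**
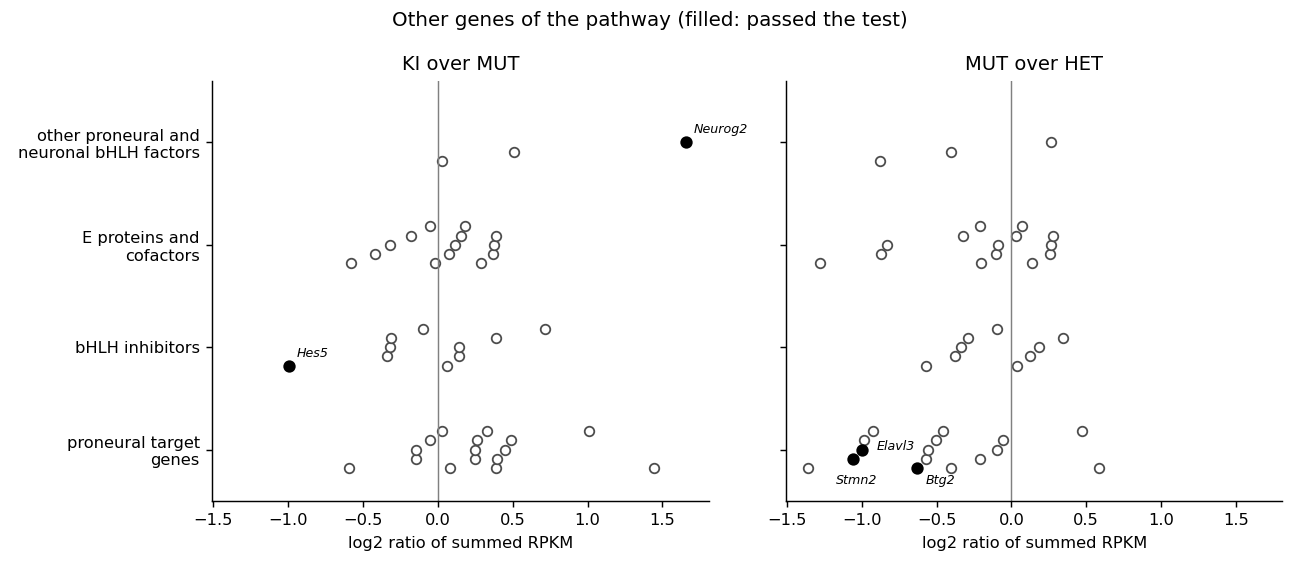
Log2 ratio of summed RPKM for the reported genes of the 4 pathway lists outside the 10 factors, knock-in over mutant on the left and mutant over heterozygote on the right; filled points passed the authors' test and are named, and height within a list only spreads the points. Target genes lie mostly left of 0 for mutant over heterozygote (14 of 16) and mostly right of 0 for knock-in over mutant (12 of 16).

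Other differences between the groups moved with these results, and their part in them was not tested. As a scale for the counts below, 1.09% of all listed genes were called lower in the mutant comparison. In the knock-in comparison 1.03% were called higher and 0.634% lower. Ganglion cell markers were lower in the MUT-labelled group: 14 of 14 listed had lower values, 9 were called, and they summed to 641.7 RPKM against 1209 RPKM in heterozygotes. In the knock-in comparison all 14 had higher values and 2 were called, with sums of 866.4 RPKM in KI-labelled and 629.1 RPKM in MUT-labelled retinas. Stmn2, Elavl4 and Atoh7 stand both among these markers and on the pathway lists above, as does Hes1 among the progenitor markers. The marker and pathway counts are thus not separate, and the called Stmn2 enters both in the mutant comparison. The 10 retinal progenitor markers were all listed in both tables with none called. In the mutant comparison all 10 had higher values in the MUT-labelled group, and summed to 2635 RPKM against 2182 RPKM in heterozygotes. Sfrp2 alone held 1304 RPKM and 1027 RPKM of these sums. In the knock-in comparison 5 of the 10 had higher and 5 had lower values in the KI-labelled group. In KI-labelled retinas, pigment epithelium markers summed to 116.4 RPKM against 24.7 RPKM in the MUT-labelled group (11 of 12 listed, all higher, 7 called), lens markers to 141.9 RPKM against 40.8 RPKM (9 of 15 listed, all higher, 3 called; Foxe3 at 0 in the MUT-labelled group) and blood markers to 131.3 RPKM against 35.1 RPKM (7 of 10 listed, all higher, 2 called). Periocular mesenchyme markers summed to 30.3 RPKM against 18.0 RPKM (4 of 9 listed, all higher, with Lum called). The knock-in comparison lists no transcript whose higher value is under 1.04 RPKM. A gene below this in the MUT-labelled group could therefore be listed only as higher. This held for Tyrp1, Mitf, Mlana, Slc45a2, Ttr and Rlbp1 (pigment epithelium), Foxe3 and Lim2 (lens) and Twist1 (mesenchyme). It also held for Hba-a1, Hbb-bh1, Hbb-bt, Hbb-bs and Alas2 (blood), so the direction of these genes was set by the listing. In the mutant comparison, lens markers summed to 40.8 RPKM in MUT-labelled and 63.3 RPKM in heterozygote retinas (7 of 15 listed, 6 lower, none called). In KI-labelled retinas the 8 listed immediate early and heat shock genes were all lower, 7 of them called, with sums of 47.8 RPKM in the KI-labelled and 162.7 RPKM in the MUT-labelled group. Fos, Fosb, Egr1, Hspa1a and Hspa1b were below 1.04 RPKM in the KI-labelled group and could likewise be listed only as lower. The 4 listed Y-linked genes were between 8.81 and 28.6 RPKM in the KI-labelled group and between 3.48 and 21.9 RPKM in heterozygotes. In the MUT-labelled group they were at most 0.0168 RPKM. Xist, expressed from the inactive X, was at 505.2 RPKM in MUT-labelled and 183.5 RPKM in heterozygote retinas. In the other comparison it was at 173.7 RPKM in KI-labelled and 495.6 RPKM in MUT-labelled retinas. None of these genes was called. The sex of the embryos thus also differs between the MUT-labelled group and the other groups, in both comparisons, and its part was not tested. The sample titles share the number 311 over the knock-in samples and 466 over the other samples; if this marks a litter or a batch, it cannot be told apart from the knock-in label.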

How the data were processed

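RNA was measured in 9 retina samples, 3 per labelled genotype. The submitters' processing notes name Bowtie2, Cufflinks, Cuffdiff and the build mm10, without versions. Per the file headers, the authors deposited RPKM per transcript and group, a log2 ratio, a test statistic (a score with no fixed range), and the p-value and q-value of their test, with replicates pooled. The tables hold 27311 transcripts (MUT over HET) and 26586 (KI over MUT), and no transcript is listed whose higher value is under 0.906 and 1.04 RPKM.

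The deposited q-values equalled a Benjamini-Hochberg adjustment over the whole table to within 5.26e-07. Log2 ratios were recomputed without a pseudocount from RPKM summed over the listed transcripts of a symbol (Python 3.11.15, pandas 2.3.3), and single ratios equalled the deposited ones to within 0.0041. A gene counts as called where any of its transcripts has q of 0.05 or less. The adjustment was tested on simulated data. Transcripts with no symbol, or a date in its place, stayed out of work by gene (173 and 172). Coordinates are the authors' loci, counted from base 1.

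The members and lists were chosen with earlier results of these data known. Named genes are the 10 members and, per pathway list and comparison, up to 4 called genes or, where none was called, the 2 most abundant; Atoh7 and Ptf1a were named after their values were seen. The identity of the knocked-in sequence, 1 gene of the bHLH list and 1 of the oligodendrocyte list are not reported here, and the list counts leave these genes out. The pairing of transcripts between tables and the promoter motifs were also chosen after the data were seen.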

Additional observations from a re-analysis of the deposited data

How the results depend on the processing

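No paired analysis was possible because the tables hold 1 value per group, and for the same reason no replicate could be left out. With q of 0.02 or less, 3 in place of 5 of the 10 genes were called in the mutant comparison (Olig2 and Insm2 no longer) and 1 in place of 2 in the knock-in comparison (Insm2 no longer), beside 0.874% of all genes called lower and 0.742% called higher; the lowest q-values the tables can hold are 0.0109 and 0.0104. With q of 0.1 or less, with adjustment over genes by their most abundant transcript, and with at least 1 RPKM in both groups, the counts stayed at 5 and 2. Of all genes tested, 1.38%, 1.42% and 1.08% were called lower in the mutant comparison under these settings, in this order. In the knock-in comparison 1.61%, 1.5% and 1.08% were called higher. The median log2 ratio of the 10 genes lay between -0.60 and -0.54 in the mutant comparison and between 0.15 and 0.20 in the knock-in comparison over pseudocounts of 0.1 and 1 RPKM, the most abundant transcript and centring on all genes. Of 80 ratios of single genes under these settings, 3 changed sign, all by the most abundant transcript and all of genes that were not called: Tcf4 to -0.37 and 0.57, and Tcf12 in the knock-in comparison to 0.14. Insm1 was the 1 gene at or above its heterozygote level in the KI-labelled group, with or without rescaling between tables. Depth per sample is unknown, and the low levels of Olig2 and Bhlhe22 and the many transcripts of Tcf4 and Tcf12 limit what could be detected.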

Other observations

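Genes whose 2 log2 ratios lay closest to those of a factor were sought among 8697 genes with at least 5 summed RPKM in every group, by the Euclidean distance between the pairs of ratios; this rests on 3 groups and shared mutant samples, and is a description. For Nhlh1 the nearest were Mir124a-1hg, the host transcript of a neuronal microRNA (distance 0.05), at 10.7 RPKM in the KI-labelled, 9.70 RPKM in the MUT-labelled and 26.1 RPKM in the heterozygote group, and L1cam, an axonal adhesion molecule (distance 0.20). L1cam was also nearest to Nhlh2 (distance 0.14), followed by Pou4f1, a ganglion cell factor (distance 0.15). For Neurod4 the nearest were Nova2, a neuronal splicing regulator (distance 0.07), at 9.86, 6.25 and 12.7 RPKM in the KI-labelled, MUT-labelled and heterozygote groups, and Tbc1d8 (distance 0.11). For Insm2 they were Nabp1 (distance 0.01) and Trappc6b (distance 0.03). For the others they included Aplp1 and Gtdc1 (Neurod1), Prmt2 and Ero1l (Bhlhe22), Tmem178b (Olig2), Serp2 and 1810055G02Rik (Insm1), Yy1 and Desi2 (Tcf4) and Tob1 and Accs (Tcf12), all within 0.04. Cerkl, which shares the locus of Neurod1, was at 12.1 RPKM in MUT-labelled and 16.0 RPKM in heterozygote retinas and did not pass (q = 0.995 in the authors' deposited table).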
